A study of Mus musculus with 2 samples.

Results

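Small RNAs of 20 to 23 nt that came from repeated sequence, and not from a miRNA hairpin, were examined in fetal mouse testes as candidate endogenous siRNAs (endo-siRNAs). A distinct read sequence was a member when it had no sense match, with up to 2 mismatches, to a miRNA hairpin of the GENCODE M21 annotation (build GRCm38), no exact match to an annotated rRNA, snRNA, snoRNA, scaRNA, misc_RNA or mitochondrial gene, and an exact match, on either strand, to transcripts of at least 2 genes. This left 9307 members among 142498 sequences of 20 to 23 nt and 1132769 sequences of all lengths. No genome or repeat library was used, so a repeat here is sequence shared by the exons of 2 or more genes.

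The WT library was made from 20 whole testes of wild-type C57BL/6 fetuses at E16.5, and the KO library from 20 whole testes of fetuses of the same strain and age lacking Hsp90α (Hsp90aa1). HSP90α is a chaperone, and the study asked whether it is needed for small RNA production in the mouse germline. Each genotype has 1 library of pooled testes that hold germ cells and somatic cells together, so fewer germ cells and less small RNA per germ cell cannot be told apart. The deleted gene was not measured by these libraries, and the genotype labels were not checked. The libraries held 6409305 (WT) and 5589326 (KO) reads, and 3 reads were 4.68e-05% and 5.37e-05% of them. Counts were normalised to miRNA reads (2868360 WT and 2898349 KO reads of 20 to 33 nt on hairpins). All 95% intervals cover the counting of reads only, PCR copies were not removed, and without replicate libraries no test between the genotypes was possible.

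Endo-siRNAs are cut by Dicer from long double-stranded RNA, for example from hairpins or from paired sense and antisense transcripts of retrotransposons and pseudogenes. The cut leaves duplexes with 2-nt 3′ overhangs, and 1 strand is then carried by an Argonaute protein; in mice this pathway is best known from oocytes. Fetal male germ cells also make piRNAs, which are longer, are carried by PIWI proteins, mostly begin with uracil (U) and, where the ping-pong cycle makes them, overlap an RNA of the opposite strand by 10 nt at their 5′ ends.

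The members were not 1 population. By the genes they matched and by their 3′ ends they fell into 5 groups that were defined after the sequences had been seen. Ribosomal-copy members matched Lars2, AA474408 or Gm15564. A further set ended in CCA, the triplet that closes every mature tRNA. A set of G-rich and C-rich RNAs matched only the pseudogenes Gm12895 and Gm12896. L1-like members had at least 50% of their matches in segments similar to a transcript that carries the L1 retrotransposon. The remaining members are called other members. The leading sequences of the first 3 groups are printed 5′ to 3′ because they were among the most abundant of their group. Capitals mark the 19 nt shared by 7 of the 10 most abundant members and the CCA end.

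ribosomal copy, 21 nt: cAAGCGTTGGATTGTTCACCc
ribosomal copy, 20 nt: AAGCGTTGGATTGTTCACCc
ribosomal copy, 23 nt: accAAGCGTTGGATTGTTCACCc
CCA end, 22 nt: tcaggtccctgttcgggcgCCA
CCA end, 21 nt: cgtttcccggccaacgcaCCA
Gm12895 and Gm12896, 22 nt: cccccggtggggcggggggccc

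Among L1-like and other members, the most abundant sequence of each group and the pairs of opposite strands that could form a duplex with 2-nt 3′ overhangs are shown next. Capitals in the paired strands mark the 2 unpaired 3′ nucleotides, and the preceding 20 nt of each strand are complementary to the first 20 nt of its partner.

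L1-like, 22 nt: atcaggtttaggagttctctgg
other, 20 nt: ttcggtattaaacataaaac
duplex 1, L1 antisense strand: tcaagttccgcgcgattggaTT
duplex 1, L1 sense strand: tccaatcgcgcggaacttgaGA
duplexes 2 and 3, shared strand: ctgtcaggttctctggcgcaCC
duplex 2, partner strand: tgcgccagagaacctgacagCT
duplex 3, partner strand: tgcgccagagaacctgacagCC
duplex 4, strand ending in GA: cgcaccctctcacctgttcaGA
duplex 4, strand ending in CC: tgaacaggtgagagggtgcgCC
duplex 5, L1 antisense strand: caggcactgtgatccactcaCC
duplex 5, L1 sense strand: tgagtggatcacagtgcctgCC

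Members were a small part of the 20- to 23-nt RNAs. Of 2972032 WT reads of these lengths, 84.4% matched a miRNA hairpin, and of 2989833 KO reads 85.0% did. The members held 16117 WT reads (0.542% of 20- to 23-nt reads and 3.47% of those without a hairpin match) and 11813 KO reads (0.395% and 2.63%). Most sequences were rare. In all, 7236 members (77.7%) were read once in both libraries together, 6518 were found in WT, 4035 in KO and 1246 in both, and the most abundant had 766 WT and 914 KO reads.

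Relative to miRNA reads, the members were fewer in KO testes. Their KO/WT ratio was 0.725 (0.708 to 0.743 by the Clopper-Pearson method), against 0.902 (0.883 to 0.920) for 20- to 23-nt RNAs on exons of 1 gene, 0.963 (0.959 to 0.967) for those on no transcript and 1.03 (1.02 to 1.05) for fragments of structural RNAs. The RNAs of 24 to 33 nt chosen by the same match to 2 or more genes, the length range of piRNAs, stood at 0.444 (0.441 to 0.448; 204903 WT and 91995 KO reads). The ratio of the members therefore lay between those of structural RNA fragments and piRNA-length RNAs from repeats, and the groups differed in where they lay.

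The ribosomal-copy group held 221 sequences with 4390 WT and 4058 KO reads, 27.2% and 34.4% of all member reads. Its KO/WT ratio was 0.915 (0.876 to 0.955). Lars2 encodes the mitochondrial leucyl-tRNA synthetase, and its annotated transcript is known to end in a stretch of ribosomal RNA sequence; no ribosomal RNA reference was used here, so the match of these RNAs to ribosomal RNA itself was not tested. The 20-nt RNA shown above lay in the 3′ UTR of Lars2 at chr9:123462057-123462076, in an exon of AA474408 at chr7:110059710-110059729 and in an exon of Gm15564 at chr16:35981768-35981787. It had 345 WT and 331 KO reads. The 21-nt RNA with 1 more 5′ nucleotide had 381 and 348 reads, and the 23-nt RNA had 297 and 238. The 14 members holding the same 19 nt made up 49.7% of WT and 47.6% of KO reads of the group, as a ladder of 5′ and 3′ ends around 1 core. Another leading member, cagaattcaccaagcgttgga, began upstream of this core on Lars2 (chr9:123462046-123462066) and had 226 WT and 251 KO reads. Nearly all reads of the group had the sense orientation: 0.205% of WT reads matched both strands and none matched the antisense strand only, which allows up to 0.0683% at this depth. The first base was U in 17.9% of WT and 18.6% of KO reads. Gm42418, Gm26917 and AY036118, which carry or border ribosomal RNA sequence on chromosome 17, were matched by 0 members.

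RNAs ending in CCA, outside the ribosomal-copy group, comprised 156 sequences with 1204 WT and 1492 KO reads and a KO/WT ratio of 1.23 (1.14 to 1.32). In this group 6 sequences held 89.0% of WT and 93.3% of KO reads. The leading one, tcaggtccctgttcgggcgCCA, was also the most abundant of all members, with 766 WT and 914 KO reads (ratio 1.18, 1.07 to 1.30). It matched no transcript in the sense orientation and lay antisense to the 3′ UTR of Olfr1388, an olfactory receptor gene (chr11:49445505-49445526), and to an exon of Gm43078 (chr3:35413894-35413915). Forms shorter at the 5′ end had 47 WT and 73 KO reads at 21 nt and 84 and 164 at 20 nt, while the 21-nt form lacking the last A was read 0 times in either library. A different leading sequence, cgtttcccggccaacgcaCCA, had 74 WT and 109 KO reads and lay antisense to exons of Gm48377 and Platr15. Of the 6 sequences, 4 matched antisense strands only. Nuclear tRNAs are not among the transcripts used, so the tRNA origin of these RNAs was not tested.

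The CCA end set these sequences apart by abundance and not by number. CCA ended 1.72% of member sequences and 1.70% of the 24- to 33-nt sequences from 2 or more genes. By reads it ended 9.11% (WT) and 14.4% (KO) of the members and 1.18% and 1.24% of the 24- to 33-nt RNAs. Of the 160 members ending in CCA, 4 with 265 WT and 214 KO reads matched the ribosomal-copy genes and were counted there. The 150 sequences of the CCA group beside its 6 leading ones had 133 WT and 100 KO reads and a ratio of 0.744 (0.568 to 0.972).

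The Gm12895 and Gm12896 group held 46 sequences, 727 WT and 955 KO reads, with a ratio of 1.30 (1.18 to 1.43). Both are processed pseudogenes of chromosome 4, and every read of the group was antisense to both. The leading RNA, cccccggtggggcggggggccc, had 142 WT and 181 KO reads and lay at chr4:122455278-122455299 and chr4:122122913-122122934. U was the first base of 0 WT reads, where 3 reads would be 0.413% and the upper Wilson bound was 0.526%. In KO it was the first base of 0.105% of reads. These first 3 groups contained no pair of members able to form a duplex with 2-nt overhangs in either library.

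L1-like and other members together were the larger number of sequences, 8884 of 9307, but held 60.8% of WT and 44.9% of KO member reads. L1 is the main active retrotransposon family of the mouse germline, and its 5′ end carries tandem promoter units called monomers. The 2770 L1-like members had 3704 WT and 1791 KO reads (ratio 0.479, 0.452 to 0.506), and the 6114 other members had 6092 and 3517 (0.571, 0.548 to 0.596). Their median number of matched genes was 20 and 5. Most of their WT reads matched both strands of annotated transcripts, 89.5% of L1-like and 77.6% of other reads.

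The most abundant L1-like member, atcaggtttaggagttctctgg, had 85 WT and 35 KO reads (ratio 0.408, 0.267 to 0.611) and matched 37 genes. The next, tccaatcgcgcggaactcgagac, had 55 and 28 reads and lay antisense to Gm26905 and Gm48916. Among other members the leading RNA, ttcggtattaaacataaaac, had 70 WT and 49 KO reads (0.693, 0.471 to 1.01) and lay antisense to the 3′ UTR of D10Wsu102e (chr10:83462051-83462070). It was followed by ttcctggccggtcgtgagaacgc, with 52 and 35 reads (0.666, 0.421 to 1.04), which matched 28 genes including Noct. For both of these other members the interval included 1. The leading L1-like RNA held 0.527% of WT member reads and no other member of these groups held more, so both consist of many RNAs at low counts.

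L1-like members came from both strands of the element in similar amounts. Sense RNAs had 1943 WT and 985 KO reads (ratio 0.502, 0.464 to 0.542), and antisense RNAs had 1761 and 806 (0.453, 0.416 to 0.493), with overlapping intervals. At 22 nt, U was the first base of 73.9% of sense and 56.3% of antisense WT reads. Positions were counted from the 5′ end of a reference, the reverse complement of the whole 6046-nt transcript of Gm47578. This transcript carries L1 sequence in reverse orientation, and how much of it is L1 was not determined. The first 1000 nt held 1104 WT and 535 KO reads, more than any other 1000-nt window, the lowest being positions 2001 to 3000 with 319 and 161. The KO/WT ratio was between 0.438 and 0.506 in the 6 full windows, with overlapping intervals, so the lower level in KO was found along the whole reference.

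In length, L1-like and other members had a local maximum at 22 nt in both libraries, below the level of the 24-nt RNAs. WT reads numbered 1624 at 20 nt, 1899 at 21 nt, 3259 at 22 nt and 3014 at 23 nt, and KO reads 1072, 1083, 1648 and 1505. Going on by the same rule, 24-nt RNAs had 5131 WT and 2527 KO reads and the numbers rose to 40253 (WT, 28 nt) and 17259 (KO, 28 nt). On the shorter side, 19-nt RNAs had 5133 WT and 3622 KO reads, so that 20 to 23 nt lay below both 19 and 24 nt. The 19-nt RNAs stood out from the lengths just below them. RNAs of 18 nt had 1041 WT and 830 KO reads and those of 17 nt 1436 and 1020, fewer than any length from 20 to 23 nt. At 16 nt there were 4325 and 3036 reads. For L1-like members alone the 22-nt reads (1314 WT and 614 KO) exceeded those at 21 nt (679 and 321) and at 23 nt (1079 and 510). L1-like RNAs of 24 nt had 2483 and 1166. For other members the 22-nt reads (1945 WT and 1034 KO) were close to those at 23 nt (1935 and 995). The share of 22-nt RNAs was 35.5% (34.0 to 37.0) of L1-like WT reads and 31.9% (30.8 to 33.1) of other WT reads, against 62.3% of miRNA reads of 20 to 23 nt. It was 29.4% of WT reads of these lengths on no transcript, 25.8% of structural RNA fragments and 24.6% of RNAs on exons of 1 gene. In KO, L1-like and other members together had 31.0% (29.8 to 32.3), against 30.4%, 26.4% and 24.8% in these sets.

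The first base moved with length. Among L1-like and other members, U was first in 48.5% of WT reads at 20 nt, 55.8% at 21 nt, 62.8% at 22 nt and 68.5% at 23 nt, and in 73.6% of the 24-nt RNAs chosen in the same way. KO values for the members were 42.4%, 52.7%, 59.7% and 60.8%. Over 20 to 23 nt the share was 60.8% (59.9 to 61.8) in WT and 55.1% (53.8 to 56.4) in KO, and for the matching 24- to 33-nt RNAs 68.9% and 70.2%. Among RNAs of 20 to 23 nt on exons of 1 gene it was 21.8% and 19.1%, and among miRNA reads of the same lengths 70.9% and 69.4%. A first U was therefore common in miRNA reads as well as in piRNA-length RNAs. Adenine at position 10, the base that pairs with a first U at a 10-nt overlap, was found in 39.3% of WT and 38.5% of KO reads of L1-like and other members, in 47.1% and 46.2% of the matching 24- to 33-nt RNAs and in 26.5% and 26.3% of RNAs on exons of 1 gene.

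The KO/WT ratio of L1-like and other members also moved with length. It was 0.653 (0.604 to 0.706) at 20 nt, 0.564 (0.523 to 0.608) at 21 nt, 0.50 (0.471 to 0.531) at 22 nt and 0.494 (0.464 to 0.526) at 23 nt. The ratio of the matching 24- to 33-nt RNAs was 0.429 (0.425 to 0.432). The quotient of the ratios, 20 to 23 nt over 24 to 33 nt, is the same for any total that is shared by both length ranges. It was 1.25 (1.21 to 1.29) for L1-like and other members together, 1.23 (1.16 to 1.30) for L1-like and 1.23 (1.18 to 1.28) for other members. At 22 nt it was 1.17 (1.10 to 1.24). It was 1.63 (1.59 to 1.67) for all members, 1.16 (1.10 to 1.23) for the ribosomal-copy group, 2.87 (2.57 to 3.19) for CCA ends and 1.17 (1.02 to 1.35) for the Gm12895 and Gm12896 group. Fragments of structural RNAs moved with length as well, from a ratio of 1.03 at 20 to 23 nt to 0.886 (0.876 to 0.896) at 24 to 33 nt, a quotient of 1.17 (1.14 to 1.19). Relative to structural fragments of the same lengths, the quotient fell to 1.40 (1.36 to 1.44) for all members, 1.07 (1.03 to 1.12) for L1-like and other members together, 1.06 (0.993 to 1.12) for L1-like and 1.05 (1.004 to 1.10) for other members. It was then 0.995 (0.94 to 1.05) for the ribosomal-copy group, 1.01 (0.870 to 1.16) for the Gm12895 and Gm12896 group and 0.980 (0.915 to 1.05) for L1-like and other members at 22 nt, all with 1 inside the interval. For CCA ends it was 2.46 (2.20 to 2.74), but both CCA quotients compare unlike sets. At 20 to 23 nt, 6 sequences held 89.0% of WT reads, and 81.6% of WT reads were antisense only. At 24 to 33 nt there were 1311 sequences, with 9.31% of WT reads antisense only.

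Many L1-like and other members were the 5′ part of a longer RNA of the same library. In WT 72.3% of their reads (71.4 to 73.2) shared the 5′ end of a 24- to 33-nt read and were contained in it. For a start 1 nt further inside a longer read the share was 50.4%. In KO the shares were 60.0% (58.6 to 61.3) and 37.2%. KO held fewer longer sequences to contain them (32885 against 59184), so the levels are not comparable between libraries, while the excess over the shifted start was present in both. For the 3′ end, 67.2% of WT reads ended with a longer read and 61.8% ended 1 nt before one, a smaller excess. Sharing a 5′ end with a longer read was not particular to these members. Among miRNA reads of 20 to 23 nt the shares were 98.3% and, for a start 1 nt further inside, 87.5% in WT, and 98.4% and 89.9% in KO. For ribosomal-copy members they were 98.7% and 98.5% in WT.

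Members sharing the 5′ end with a longer RNA in either library and the remaining members had different features. The 4920 nested sequences had 7170 WT and 3333 KO reads, a ratio of 0.460 (0.441 to 0.479) and U first in 68.0% of WT and 67.1% of KO reads. The 3964 sequences that were not nested had 2626 and 1975 reads, a ratio of 0.744 (0.702 to 0.789) and U first in 41.3% and 34.8%. At 22 nt the ratios were 0.435 (0.405 to 0.467) for nested and 0.711 (0.636 to 0.794) for the others. A sequence with more WT reads is more readily found nested, and how far this moved the ratios was not tested.

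Pairs of members that could form a duplex with 2-nt 3′ overhangs at both ends were found in both libraries. In WT there were 92 such pairs with 578 reads (3.59% of member reads), 91 of them within L1-like and other members, and in KO there were 44 and 43. At 22 nt, 39 WT pairs held 369 reads, or 11.3% (10.3 to 12.5) of the 22-nt reads of L1-like and other members. Overhangs of 0, 1, 3, 4, 5 and 6 nt gave 1.20%, 1.47%, 4.63%, 4.48%, 8.13% and 2.58%. In KO, 21 pairs at 2 nt held 109 reads, or 6.61% (5.51 to 7.92), against 0.485%, 3.70%, 3.34%, 2.49%, 3.58% and 1.70%. By reads the 2-nt overhang was thus the highest at 22 nt in each library, but by number of pairs it was not in WT, where 5-nt overhangs gave 44 pairs. At the other lengths the 6-nt overhang gave the most WT reads of L1-like and other members, with 4.50% against 1.79% for 2 nt at 20 nt, 5.21% against 4.58% at 21 nt and 6.01% against 3.02% at 23 nt. In KO the 2-nt overhang was highest at 20 nt (1.31%), the 3-nt overhang at 21 nt (4.16% against 3.23%) and the 6-nt overhang at 23 nt (5.05% against 1.73%). The single L1-like RNA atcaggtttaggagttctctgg held 85 of the 369 WT reads, and without it the WT share was 8.95%. When all lengths were pooled, WT had 91 pairs at 2 nt and 93 at 5 nt.

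Over both libraries together there were 158 pairs of 311 sequences, with 717 WT and 331 KO reads, or 0.457 KO reads per WT read after normalisation (0.40 to 0.521). This quotient was 0.443 (0.367 to 0.533) for L1-like and 0.470 (0.388 to 0.568) for other strands, and 0.440 (0.370 to 0.521) for the 69 pairs of 22 nt. A pair was counted only when both strands were read, and WT held more sequences than KO, so this choice favours strands with many WT reads and the quotient cannot be compared with that of all L1-like and other members. In 132 of the 158 pairs the rarer strand had been read once in both libraries together, and 18 pairs were complete in each library. U was the first base of 52.2% of WT duplex reads. Of the duplex strands, 89.3% in WT (86.8 to 91.3) and 76.4% in KO (71.6 to 80.7), counted as reads, were also the 5′ part of a 24- to 33-nt read, and in 10 pairs neither strand was.

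Duplex 1 lay near position 209 of the L1 reference from Gm47578. Its antisense strand had 19 WT and 5 KO reads and its sense strand 27 and 9. Both strands matched the same 6 genome positions in 5 genes, among them 2 positions of Gm26905 (chr8:58298294-58298315 and chr8:58298502-58298523 for the antisense strand). Duplex 5, near position 183, had 3 WT and 3 KO reads on its antisense strand and 7 WT and 0 KO reads on its sense strand. Duplexes 2 to 4 were formed by members of the other group and lay close together. The gene A230004M16Rik, matched by strands of each, was also matched by the L1 sense strand of duplex 5. Duplexes 2 to 4 were therefore not shown to lie outside L1 sequence. On A230004M16Rik the strand shared by duplexes 2 and 3 lay at chr11:41884620-41884641 and the GA-ending strand of duplex 4 at chr11:41884636-41884657. The shared strand had 5 WT and 4 KO reads, its partner ending in CT 9 and 7, and its partner ending in CC 6 and 7. The strands of duplex 4 had 7 and 2, and 6 and 3. All these counts are small, and the intervals of the KO/WT ratios include 1 for every strand but those of duplex 1 and the L1 sense strand of duplex 5.

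Opposite strands were also examined by the overlap of their 5′ ends on shared transcripts, where 10 nt is the ping-pong geometry and, for 22-nt RNAs, 20 nt the Dicer geometry. Among all members, 10 nt held 763 WT pairs and 11.8% of the reads of the rarer strand over overlaps of 1 to 23 nt, the other overlaps holding at most 6.05%. In KO it held 300 pairs and 13.5%, against at most 6.35%. Paired with the 24- to 33-nt RNAs, L1-like and other members again had 10 nt as the leading overlap, with 11.7% in WT and 13.1% in KO against at most 5.27% and 5.29%. When both RNAs were 22 nt, 10 nt held 10.7% and 20 nt 7.77% of WT reads, and 9.41% and 9.14% of KO reads, as the 2 highest overlaps in each library by reads. By number of pairs 10 nt again led in WT with 77, but 20 nt, with 39, came after overlaps of 8 nt (49), 2 and 17 nt (42 each) and 7 nt (41). The KO values at 22 nt rest on 26 and 21 pairs.

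Single members were compared by a 2-fold difference. Of 137 members read 20 times or more over the pair of libraries, 28 had a KO/WT ratio below 0.5 and 3 a ratio above 2; over all 34700 sequences of the libraries with as many reads, 16.5% were below 0.5 and 1.99% above 2. Of the 28, 9 were L1-like (of 23), 13 were other members (of 25) and 6 were ribosomal copies (of 72). Among the 24- to 33-nt RNAs from 2 or more genes 60.7% were below 0.5, and among miRNA sequences 5.44%. With at least 50 reads, 5 of 62 members were below 0.5 and 2 above 2, against 10.8% and 0.657% of all sequences.

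The lowest ratios among members with at least 50 reads belonged to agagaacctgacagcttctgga, with 57 WT and 17 KO reads (0.295, 0.161 to 0.515), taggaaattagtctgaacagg, with 38 and 12 (0.313, 0.149 to 0.611), and the L1-like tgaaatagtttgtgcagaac, with 49 and 20 (0.404, 0.227 to 0.692). The first lay in the 5′ UTR of Reg2 (chr6:78395680-78395701), a gene of the Reg family of secreted lectins, and, among its further matches, in exons of Gm35240 and Gm48309. The second lay at chr11:41884648-41884668 on A230004M16Rik, overlapping, on the opposite strand, the GA-ending strand of duplex 4. The highest ratios belonged to tcttcccggccaatgcaCCA, with 19 WT and 43 KO reads (2.24, 1.28 to 4.07), ccccggtggggcggggggcc, with 21 and 47 (2.21, 1.30 to 3.90), and aggtccctgttcgggcgCCA, with 84 and 164 (1.93, 1.48 to 2.54). All of these last RNAs thus belonged to the CCA and the Gm12895 and Gm12896 groups.

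By gene, with each read shared equally among the genes it matched, 11657 genes were touched and 10 genes held 41.4% of WT and 55.1% of KO member reads. Lars2 (chr9:123366927-123462666) received 1768 WT and 1646 KO reads, AA474408 1728 and 1613 and Gm15564 885 and 796. Olfr1388 received 436 and 544 and Gm43078 432 and 541, nearly all from the leading CCA sequences, and Gm12895 and Gm12896 364 and 478 each. The genes with L1 and other repeats followed. D10Wsu102e (chr10:83360221-83488505) was matched by 2093 members, 898 of them L1-like and 1161 other, and received 280 WT and 169 KO reads. Noct (chr3:51224447-51251644), a circadian deadenylase-family gene, was matched by 1100 members, none of them L1-like, with 200 and 140 reads. Gm26905 (chr8:58171435-58298866), a lincRNA with L1 sequence, was matched by 1476 members, 1452 of them L1-like, with 209 and 99.4 reads. Gm47578 and Gm37158, further genes with L1 sequence, ranked 15 and 28 and received 120.0 and 55.7, and 70.0 and 34.8 reads. Over L1-like and other members, protein-coding genes took 34.6% of WT reads, unclassified TEC genes 18.6%, lincRNAs 18.3% and processed pseudogenes 15.2%.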

How the data were processed

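The authors sequenced TruSeq small RNA libraries, clipped the adaptor and deposited the raw read count of every distinct sequence of 11 to 48 nt, without mapping or normalization. The submitters' notes name build mm9; the matching here used GRCm38 transcripts. Exact matches of the 16- to 36-nt sequences were sought on either strand of 141767 GENCODE M21 transcripts, and matches of those of 20 to 33 nt, with up to 2 mismatches, in 2202 miRNA hairpins. An exact match to any of 3895 structural or mitochondrial transcripts removed a sequence. L1-like segments were found with BLAST 2.17.0 (at least 80% identity over 100 nt) from the whole transcript of Gm47578. The orientation of its L1 sequence was set by the study's L1 primers.

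Shares carry Wilson intervals and KO/WT ratios Clopper-Pearson intervals from the conditional binomial, with miRNA reads as the total. Quotients of ratios carry log-odds intervals; their Fisher's exact tests compare these 2 libraries, not the genotypes, and no p-value is given because the members were chosen with results known. The sequences named are the 10 most abundant members, the 5 duplexes with most reads of the rarer strand, and the 3 highest and 3 lowest ratios at 50 or more reads; the genes are the 10 with most shared reads plus Gm42418, Gm26917, AY036118, Lars2, Gm26905, Gm37158 and Gm47578. The members and lists were chosen with earlier results of these data known. The split into 5 groups, the leading sequences of single groups, the addition of AA474408 and Gm15564, the duplex set over both libraries, the comparison of nested with other members, the quotients of groups relative to structural fragments and the duplex shares without their leading sequence were chosen after these values had been seen. Statistics were tested on simulated data. The tools were numba 0.67.0, scipy 1.17.1, pandas 2.3.3, numpy 2.4.6 and Python 3.11.15. At these depths 3 reads were 4.68e-05% of WT and 5.37e-05% of KO reads.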

Additional observations from a re-analysis of the deposited data

How the results depend on the processing

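With 1 library per genotype, no replicate could be left out and no spread between animals was available. No paired analysis was possible because each genotype has 1 library. The quotient of KO/WT ratios of all members, 20 to 23 nt over 24 to 33 nt, stayed above 1 under all 12 alternatives tried, but its size depended on the setting. From 1.63 it fell to 1.11 (1.06 to 1.16) with each distinct sequence counted once and to 1.30 (1.23 to 1.37) with at least 10 genes. The highest value was 1.79 (1.73 to 1.84), with at least 2 reads per sequence. The KO/WT ratio of the members stayed below 1 under all of its 12 alternatives. The shares below are of member reads and are read against the values with all members: KO/WT ratio 0.725, first-position U 47.2% (WT) and 39.8% (KO), 22 nt 32.6% and 31.8%, antisense only 15.2% and 22%, 2-nt-overhang duplexes 3.59% and 1.57%, and 5′ part of a 24- to 33-nt read 75.9% and 69.6%.

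With each distinct sequence counted once, the ratio was 0.613, U 53.1% and 47.3%, 22 nt 30.5% and 29.1%, antisense only 7.30% and 6.44%, duplexes 2.76% and 2.16% and 5′ parts 63.5% and 51.6%. With at least 2 reads per sequence, the ratio was 0.794, U in WT 45.9%, 22 nt 33.5% and 32.7%, antisense only 18.4% and 26.7%, duplexes 2.45% and 1.24% and 5′ parts 84.6% and 78.9%. With matches to at least 10 genes, the ratio was 0.516, U 60.3% and 57.0%, 22 nt 34.5% and 33.1%, antisense only 0.279% and 0.312%, duplexes 4.74% and 2.50% and 5′ parts 82.2% and 70.7%. Without the most abundant member, which ends in CCA, the ratio was 0.703, U 44.6% and 34.7%, 22 nt 29.3% and 26.1%, antisense only 10.95% and 15.5% and 5′ parts 79.7% and 75.5%. Without matches to Lars2, Gm42418, Gm26917 and AY036118, the ratio was 0.656, U 58.0% and 50.6%, 22 nt 36.4% and 36.8%, antisense only 20.8% and 33.4%, duplexes 4.91% and 2.39% and 5′ parts 67.5% and 54.1%. With L1-like and other members only, chosen after seeing the data, the ratio was 0.536, U 60.8% and 55.1%, antisense only 7.52% and 6.99%, duplexes 5.88% and 3.47% and 5′ parts 72.3% and 60.0%. Each of these 6 settings changed which sequences or how many reads of each were counted, and no further cause was tested.

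Normalised to all reads the ratio was 0.840, and to structural RNA fragments 0.702. With structural fragments of the same lengths as the total, the quotient of all members was 1.40 in place of 1.63. By group, added after seeing the data, it crossed 1 for ribosomal copies (0.995 in place of 1.16) and for L1-like and other members at 22 nt (0.980 in place of 1.17), and its interval came to include 1 for L1-like members (1.06) and for the Gm12895 and Gm12896 group (1.01). Requiring 2 genome positions gave 5′ parts of 77.2% and 71.6%, and an exact hairpin filter 75.1% and 67.9%, with antisense only at 14.6% in WT. Overhangs of 1, 3 and 4 nt gave duplex shares of 1.15%, 2.46% and 2.54% in WT and 0.838%, 1.25% and 1.01% in KO. A partner from all 20- to 23-nt RNAs gave 4.12% in WT, and pairs found over both libraries together, an alternative added after seeing the data, 4.45% and 2.80%. Counting each pair once, also added later, put 10.2% (WT) and 11.2% (KO) at the 10-nt overlap. At 50 reads in place of 20, 5 members in place of 28 had a ratio below 0.5, out of fewer sequences tested. Depth limits single duplexes: 132 of 158 pairs rest on 1 read of the rarer strand.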

Other observations

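RNAs with the same 3′ end as the most abundant member continued below 20 nt, outside the length range of the members. The 19-nt form ggtccctgttcgggcgCCA had 834 WT and 882 KO reads, more WT reads than the 22-nt member, and the 17-nt form tccctgttcgggcgCCA had 620 and 636. At 18 nt there were 185 and 201 reads and at 16 nt 345 and 429. Above 22 nt the reads ending in the member nearly stopped, with 1 WT and 5 KO reads at 23 nt and 3 and 10 at 24 nt. The KO/WT ratio was 1.05 (0.951 to 1.15) at 19 nt, 1.02 (0.907 to 1.14) at 17 nt and 1.93 (1.48 to 2.54) at 20 nt.

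The set of CCA-ending RNAs from 2 or more genes, ribosomal copies left out, did not hold the same RNAs at each length. Its 6 leading sequences, for example, were 20 to 22 nt long. The KO/WT ratio of this set differed between lengths. It was 1.15 (1.05 to 1.27) at 22 nt, 0.524 (0.279 to 0.954) at 23 nt with 34 WT and 18 KO reads, and 0.428 (0.396 to 0.462) over 24 to 33 nt. Over 24 to 33 nt, they began with U at shares of 64.1% (WT) and 67.6% (KO), and 9.31% and 9.65% were antisense only, against 81.6% and 85.6% at 20 to 23 nt.

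Of the members, 552 sequences lay at 1 genome position where annotated genes overlap. They had 296 WT and 341 KO reads, a KO/WT ratio of 1.14 (0.973 to 1.34) and U first in 36.8% and 30.8% of reads, so that overlapping genes contributed few of the reads counted as repeats.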
